A study of Homo sapiens with 24 samples.

Results

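The cadherin and protocadherin superfamily was followed here in ES8 cells, an Ewing sarcoma line, and in a derivative of them labelled as an SLFN11 knockout. Members were taken by symbol: CDH followed by a number, PCDH genes other than PCDH11X, PCDH11Y and PCDH19, DCHS1, DCHS2, FAT1 to FAT4 and CELSR1 to CELSR3. The rule found 55 of the 17687 genes that the array annotation names, each measured by 1 probe set. They comprised 6 FAT and Dachsous genes, 2 CELSR genes, 4 type I and 13 type II classical cadherins, 4 other cadherins, 10 non-clustered protocadherins and 16 clustered beta protocadherins. CELSR3, CDH4, CDH13 and the alpha and gamma protocadherins were not analysed here.

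The comparison was between a knockout population and its parent. The knockout population (KO) was ES8-1F2, a single derivative of ES8 made with CRISPR/Cas9 against the human SLFN11 gene, and the parental population was ES8 itself. Both were exposed to 2 Gy or 0 Gy of gamma radiation, and RNA was taken 24 h or 4 h later. This gave 4 conditions per line and 8 groups of 3 arrays, 24 Affymetrix arrays in all. Replicates are numbered in the labels, with no word on whether they came from separate cultures. The p-values given here therefore rest on a spread that may be only technical. Because there is 1 derivative, loss of SLFN11 cannot be told apart from other differences of that derivative from its parent.

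Cadherins are calcium-dependent adhesion proteins of the cell surface. Classical cadherins bind the same cadherin on the neighbouring cell and hold the actin cytoskeleton through catenins. The giant FAT and Dachsous cadherins bind one another between cells and act in planar polarity and in the Hippo growth pathway. The clustered protocadherins lie in tandem on chromosome 5, where a choice among many promoters gives cells different sets, known best in neurons. Non-clustered protocadherins such as PCDH10 and PCDH17 reach the actin cytoskeleton through the WAVE complex.

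The promoters of the members on which the results turn are shown first, from RefSeq with the build GRCh38.p14. A promoter was found for 37 of the 55 members, among them 14 of the 16 beta protocadherins. DCHS2 and FAT1, which had the largest line differences within the FAT and Dachsous family, are given as the 250 bases before the start of the gene, with every CG dinucleotide in capitals.
DCHS2, chr4:154491800-154492049 (minus strand): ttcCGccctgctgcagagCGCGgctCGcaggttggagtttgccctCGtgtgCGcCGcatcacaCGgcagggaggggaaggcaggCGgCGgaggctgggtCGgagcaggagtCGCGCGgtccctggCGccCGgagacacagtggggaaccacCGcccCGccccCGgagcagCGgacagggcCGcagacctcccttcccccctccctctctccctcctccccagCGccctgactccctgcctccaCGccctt
FAT1, chr4:186726697-186726946 (minus strand): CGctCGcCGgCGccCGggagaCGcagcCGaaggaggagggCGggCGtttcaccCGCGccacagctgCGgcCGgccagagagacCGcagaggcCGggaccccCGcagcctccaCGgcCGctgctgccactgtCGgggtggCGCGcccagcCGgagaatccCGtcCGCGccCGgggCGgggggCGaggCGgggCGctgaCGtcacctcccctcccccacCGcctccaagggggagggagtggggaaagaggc
The DCHS2 stretch had 73.2% G and C and 23 CG dinucleotides, and the FAT1 stretch had 78.0% and 32. In the full windows of 300 bases, which run to 50 bases past the start, DCHS2 had 71.7% G and C and 25 CG dinucleotides and FAT1 had 77.3% and 40. The median over the promoters of all genes was 58.7% and 14.

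The beta protocadherin promoters are known to carry a conserved element that CTCF binds. The run of 9 letters found in most of the beta promoters here, GGTGGCGCT, was searched on both strands in windows of 300 bases, as 1 motif with no other motif beside it. It was in 13 of 14 beta protocadherin promoters (92.9%), in 0 of 35 promoters of other members, and in 176 of 35116 promoters of all genes (0.501%). The motif was read from these same promoters, so its share among them is a description of them. It is shown in capitals in windows of 100 bases for the 3 beta genes that differed between the lines, PCDHB2, PCDHB5 and PCDHB16, and for PCDHB9 and PCDHB12, which lie downstream of PCDHB16 and did not pass the test.
PCDHB2, chr5:141094515-141094614 (plus strand): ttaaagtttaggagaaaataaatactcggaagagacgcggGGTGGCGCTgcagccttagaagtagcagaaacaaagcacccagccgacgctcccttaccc
PCDHB5, chr5:141135106-141135205 (plus strand): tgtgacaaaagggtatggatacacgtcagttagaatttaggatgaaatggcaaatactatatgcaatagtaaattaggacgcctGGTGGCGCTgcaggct
PCDHB16, chr5:141182287-141182386 (plus strand): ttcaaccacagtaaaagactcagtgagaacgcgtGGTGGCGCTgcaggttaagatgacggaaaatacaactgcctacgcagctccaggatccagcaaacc
PCDHB9, chr5:141187061-141187160 (plus strand): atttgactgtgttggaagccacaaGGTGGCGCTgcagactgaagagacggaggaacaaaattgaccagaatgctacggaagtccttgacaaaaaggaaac
PCDHB12, chr5:141208619-141208718 (plus strand): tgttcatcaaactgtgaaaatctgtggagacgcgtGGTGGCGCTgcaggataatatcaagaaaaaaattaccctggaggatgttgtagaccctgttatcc
Among these promoters, the motif thus stood in the beta genes that were higher in KO cells and in the one that was lower. It also stood in PCDHB9 and PCDHB12, which did not pass the test, while PCDHB1, which did not pass it either, lacked the motif.

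All signals are log2 values, and those of one gene are not set against those of another. Background on an array was the 95th percentile of 612 negative controls, a level of 3.46 to 3.81 depending on the array. Of the 55 members, 27 were above background on all 24 arrays, 15 on some and 13 on none. The correlation of 2 arrays was 0.985 to 0.993 within a group, and 0.971 to 0.983 across the lines. The interquartile range of the signals was lowest on parental replicate 2 at 2 Gy, with 3.28 at 4 h and 3.34 at 24 h. Of the 9 Ewing sarcoma markers measured, 8 were above background on all arrays, among them CD99. So were 2 of 6 epithelial markers, 2 of 5 endothelial, 1 of 4 blood, 4 of 6 fibroblast and 1 of 3 neural markers, while ESRP1 (epithelial), TEK and EMCN (endothelial) and STMN2 (neural) were never above it. Summed log2 signals of the 6 fibroblast markers ran from 32.5 to 34.1 on KO arrays and from 32.5 to 36.4 on parental arrays. SLFN11 itself, the targeted gene, lay between 6.33 and 7.07 on KO arrays and between 8.03 and 8.63 on parental arrays, a difference of -1.47 (SE 0.07, adjusted p = 1.07e-18, limma). SLFN11 was above background on all 12 KO arrays, so its RNA was lower there but still detected; where the edit lies relative to the probe set is not given, so the array does not show whether SLFN11 protein is lost. Fewer cells that express a gene and less RNA per cell cannot be told apart in such bulk samples.

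KO cells had far less RNA of the Dachsous and FAT cadherins DCHS2, FAT1 and DCHS1 and of the mesenchymal cadherin CDH11, and more of the protocadherins PCDH10 and PCDH7 and of the neural cadherin CDH8. Differences are KO minus parental, averaged over the 4 conditions, from a limma fit over all genes with Benjamini-Hochberg adjustment, and a gene was called at an adjusted p below 0.05. By this measure 17 of the 55 members were called (30.9%), against 30.4% of all genes tested. Of these, 6 were higher in KO cells (background 15.8%) and 11 were lower (background 14.6%). The median difference of the members was -0.03, against -0.02 over all genes, and the median absolute difference was 0.12, against 0.11. By this count and these medians the members were near the background, but at least a 2-fold difference was found for 6 called members (10.9%), against 2.13% of all genes.

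**Figure D1:**
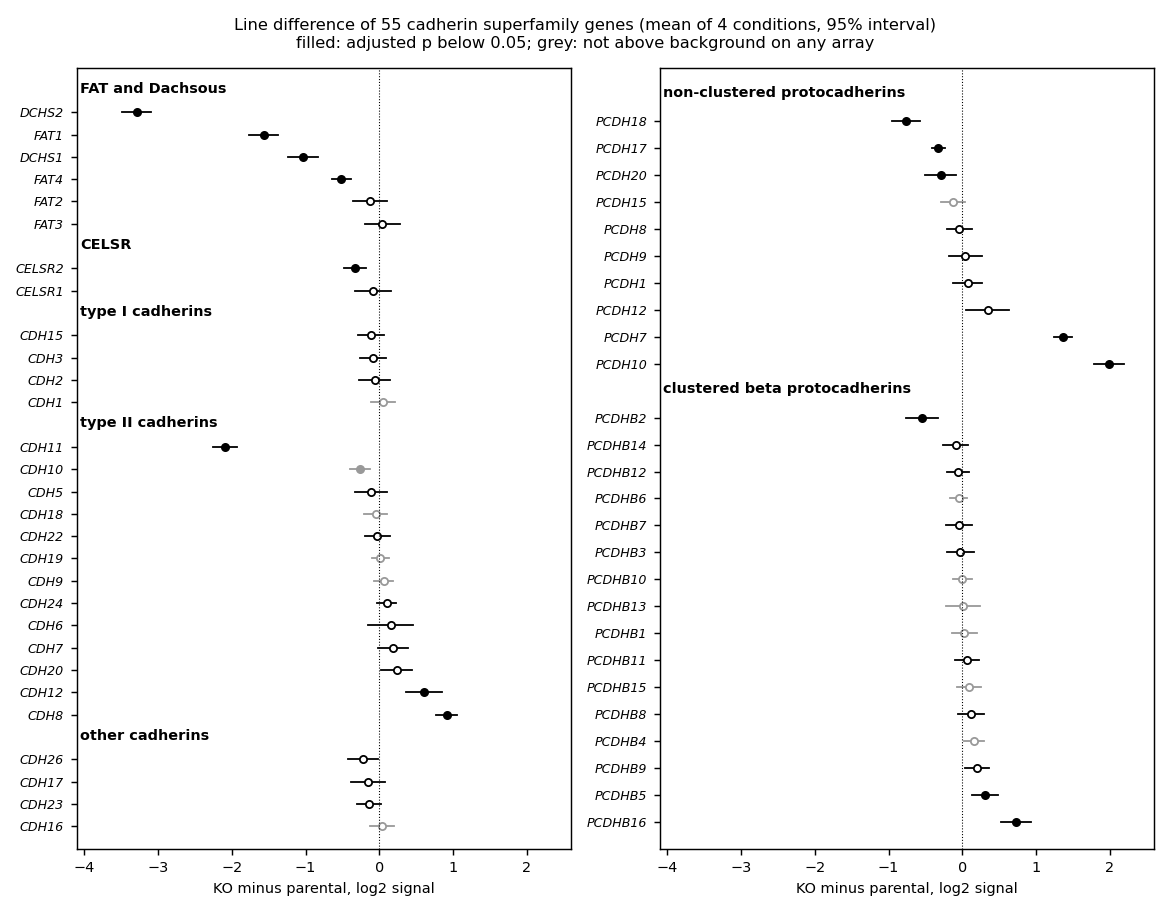
Difference of each of the 55 members between KO and parental cells (log2 signal, mean of the 4 conditions, horizontal axis) by family, with 95% intervals of the limma fit; filled points passed the test and grey ones were not above background on any array. DCHS2 lies at -3.29 and PCDH10 at 1.99, and most other members lie near 0.

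Taken condition by condition, 13 members were called at 2 Gy and 24 h (23.6%, background 12%), 11 at 2 Gy and 4 h (20%, background 12%), 11 at 0 Gy and 24 h (20%, background 11.6%) and 12 at 0 Gy and 4 h (21.8%, background 11.8%). In all 4 conditions the same 8 members were called (14.5%, background 6.38%), of which DCHS2, CDH11, FAT1, DCHS1 and FAT4 were lower in KO cells and PCDH10, PCDH7 and CDH8 were higher. For 7 of these 8, all but FAT4, the 12 KO arrays did not overlap the 12 parental arrays (12.7%, background 5.65%). These shares were above the background, and the members were not tested as a set. DCHS1 at 0 Gy and 24 h was no longer called without KO replicate 3 (-0.63, adjusted p = 0.055, limma). FAT4 at 0 Gy and 4 h was no longer called without KO replicate 2 (-0.30, adjusted p = 0.18), parental replicate 2 (-0.37, adjusted p = 0.10) or parental replicate 3 (-0.36, adjusted p = 0.10).

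**Figure D2:**
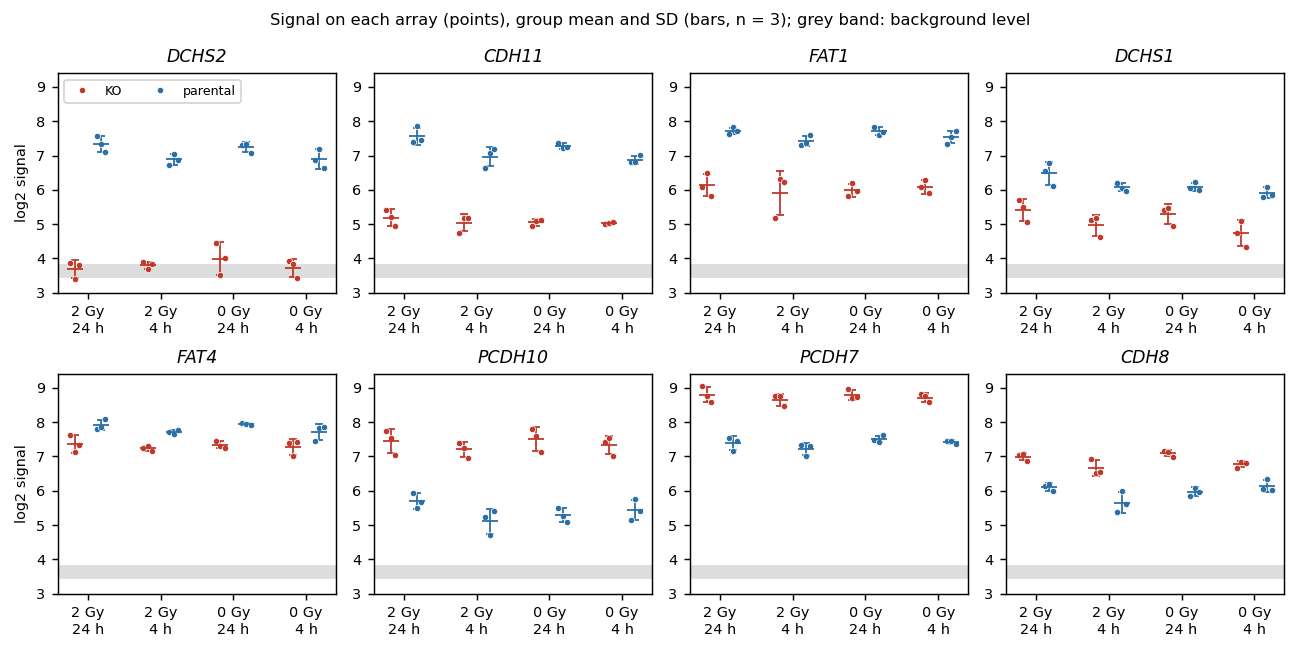
Log2 signal (vertical axis) of the 8 members called in all 4 conditions on each array, by dose and time, with group means and SD (n = 3) and the range of the background level as a grey band. KO arrays lie below parental arrays for DCHS2, CDH11, FAT1, DCHS1 and most of FAT4 and above them for PCDH10, PCDH7 and CDH8.

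The Dachsous and FAT genes came first by size. DCHS2, a Dachsous cadherin, is by its family a ligand-side partner of the FAT cadherins. At 2 Gy and 24 h it read 3.86, 3.40 and 3.82 on KO arrays, against 7.57, 7.34 and 7.11 on parental arrays. At 2 Gy and 4 h it read 3.89, 3.68 and 3.83 on KO arrays, against 6.73, 7.05 and 6.88 on parental arrays. The KO values lay close to the background level, on either side of it, while every parental value was far above it. At 0 Gy and 24 h it read 4.46, 3.52 and 4.01 on KO arrays, against 7.31, 7.34 and 7.07 on parental arrays. At 0 Gy and 4 h it read 3.92, 3.84 and 3.43 on KO arrays, against 6.88, 7.20 and 6.63 on parental arrays. DCHS2 was the member with the largest line difference, -3.29 (SE 0.10, 9.78-fold lower in KO cells, adjusted p = 2.07e-23, limma). It was below background on 3 of 12 KO arrays, and signals so close to background can understate a fold. By condition the difference ran from -3.65 at 2 Gy and 24 h to -3.09 at 2 Gy and 4 h.

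FAT1, a giant cadherin that acts on cell migration, actin and Hippo signalling, lay below its parental level in every condition. At 2 Gy it read 6.10, 6.49 and 5.83 at 24 h and 5.17, 6.32 and 6.22 at 4 h on KO arrays, against 7.64, 7.82 and 7.70 and then 7.32, 7.35 and 7.61 on parental arrays. At 0 Gy it read 5.81, 6.19 and 5.96 at 24 h and 6.07, 6.29 and 5.90 at 4 h on KO arrays, against 7.84, 7.60 and 7.68 and then 7.35, 7.54 and 7.71 on parental arrays. The highest KO value, 6.49, was below the lowest parental value, 7.32. One KO array, replicate 1 at 2 Gy and 4 h, stood below the other KO arrays with 5.17, which widened the SD of that group to 0.64. The FAT1 difference was -1.57 (SE 0.10, 2.97-fold lower in KO cells, adjusted p = 4.56e-15, limma).

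DCHS1 and FAT4 form a ligand and receptor pair between mammalian cells, and both were lower in KO cells. DCHS1 read 5.69, 5.50 and 5.05 at 2 Gy and 24 h and 5.11, 5.18 and 4.61 at 2 Gy and 4 h on KO arrays, against 6.54, 6.77 and 6.12 and then 6.19, 6.06 and 5.97 on parental arrays. At 0 Gy it read 5.42, 5.48 and 4.95 at 24 h and 4.74, 5.10 and 4.35 at 4 h on KO arrays, against 6.04, 6.22 and 5.999 and then 5.78, 6.09 and 5.86 on parental arrays. Every KO value was below the lowest parental value. Its difference was -1.04 (SE 0.10, 2.05-fold lower, adjusted p = 2.08e-10, limma), between -1.18 at 0 Gy and 4 h and -0.80 at 0 Gy and 24 h. FAT4 read 7.64, 7.14 and 7.32 at 2 Gy and 24 h and 7.26, 7.31 and 7.17 at 2 Gy and 4 h on KO arrays, against 7.80, 7.85 and 8.09 and then 7.72, 7.67 and 7.78 on parental arrays. At 0 Gy it read 7.45, 7.32 and 7.26 at 24 h and 7.41, 7.02 and 7.42 at 4 h on KO arrays, against 7.97, 7.94 and 7.92 and then 7.45, 7.83 and 7.85 on parental arrays. Within each condition every KO value was below every parental value, but over all conditions the lines overlapped. Its difference was -0.51 (SE 0.06, 1.43-fold lower, adjusted p = 3.02e-08, limma). The remaining members of the family did not pass the test: FAT3 differed by 0.04 (95% interval -0.20 to 0.28, adjusted p = 0.84, limma) and FAT2, above background on 3 arrays, by -0.12 (-0.35 to 0.10, adjusted p = 0.45). In the family, 4 of 6 genes were thus lower (14.6% of all genes), 0 were higher (15.8% of all genes), and the median difference was -0.78.

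The CELSR genes encode the mammalian flamingo cadherins, which carry an adhesion G protein-coupled receptor part and act with Frizzled and VANGL proteins in planar polarity. CELSR2 had 5.12, 5.37 and 5.76 on KO arrays, against 5.40, 5.74 and 6.02 on parental arrays, as lowest, median and highest signal. Its difference was -0.32 (SE 0.07, adjusted p = 0.000664, limma), and the lines overlapped. By condition it was called only at 0 Gy and 4 h (-0.47), and that call held under 10 of 15 alternatives. Its neighbours on chromosome 1 moved with it: of the 40 nearest genes outside the superfamily, 30 were lower in KO cells, with a median of -0.13, and those with a mean signal above 6 had a median of -0.22. The part of the neighbourhood in the CELSR2 difference was not tested. CELSR1 differed by -0.09 (95% interval -0.33 to 0.15, adjusted p = 0.63, limma).

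None of the 4 type I classical cadherins passed the test between the lines, against 30.4% of all genes. CDH1, E-cadherin of epithelial cells, was never above background, and CDH2, N-cadherin, was above it on 4 of 24 arrays. CDH2 differed by -0.07 (95% interval -0.27 to 0.14, adjusted p = 0.69, limma). CDH3, P-cadherin, had median signals of 4.29 on KO arrays and 4.48 on parental arrays, and CDH15, the muscle cadherin, had 5.59 and 5.84. These last differences were -0.09 (-0.27 to 0.08) and -0.12 (-0.30 to 0.06).

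Among the type II cadherins, 2 of 13 were higher and 2 were lower in KO cells, near the 15.8% and 14.6% of all genes. CDH11, the cadherin of mesenchymal cells and osteoblasts, read 5.42, 5.21 and 4.93 at 2 Gy and 24 h and 4.75, 5.18 and 5.18 at 2 Gy and 4 h on KO arrays. The parental arrays of these conditions read 7.38, 7.86 and 7.44 and then 6.65, 7.08 and 7.18. Without radiation it read 4.95, 5.08 and 5.13 at 24 h and 5.01, 5.05 and 5.05 at 4 h on KO arrays, against 7.37, 7.21 and 7.25 and then 6.81, 6.81 and 7.01 on parental arrays. All KO arrays were above background and below every parental array. CDH11 differed by -2.09 (SE 0.08, 4.26-fold lower in KO cells, adjusted p = 7.34e-21, limma), with -2.37 at 2 Gy and 24 h as its largest and -1.84 at 0 Gy and 4 h as its smallest difference.

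CDH8, a neuronal type II cadherin that lies on chromosome 16 as CDH11 does, ran the other way. Its signals were 7.04, 7.07 and 6.87 at 2 Gy and 24 h and 6.93, 6.50 and 6.54 at 2 Gy and 4 h on KO arrays, against 6.14, 6.20 and 5.98 and then 5.37, 5.98 and 5.62 on parental arrays. In the unirradiated KO arrays CDH8 had signals of 7.16, 7.12 and 6.99 at 24 h and of 6.67, 6.83 and 6.81 at 4 h, against 5.84, 6.09 and 5.98 and then 6.04, 6.35 and 6.02 on parental arrays. The lowest KO value, 6.50, was above the highest parental value, 6.35. The difference was 0.91 (SE 0.07, 1.88-fold higher in KO cells, adjusted p = 2.13e-12, limma). CDH11 and CDH8 had the same 40 nearest genes outside the superfamily, whose median line difference was -0.03.

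CDH12, a cadherin of the brain, had a lowest, median and highest signal of 5.09, 6.01 and 6.83 on KO arrays, against 4.81, 5.37 and 5.67 on parental arrays. It was higher in KO cells by 0.60 (SE 0.12, 1.52-fold, adjusted p = 0.000139, limma), with wide overlap of the lines. By condition CDH12 was called only at 2 Gy. That call held under 8 of 15 alternatives at 24 h (0.73) and under 11 of 15 at 4 h (0.78). CDH10 was called with -0.26 (SE 0.07, adjusted p = 0.00284) although it was never above background on any array, so no fold is given. Of the uncalled type II cadherins, CDH7 and CDH24 were well above background on all arrays, with differences of 0.18 (95% interval -0.02 to 0.39) and 0.10 (-0.03 to 0.23). With the replicate number as a block CDH7 was called at 2 Gy and 24 h (0.39, adjusted p = 0.0233, limma) and over the 4 conditions (0.18, adjusted p = 0.0196). CDH5, the cadherin of endothelial cells, was above background on 21 arrays and differed by -0.11 (adjusted p = 0.49, limma), and of 5 endothelial markers 0 were called. None of the 4 other cadherins passed the test (30.4% of all genes did), and CDH23, of the inner ear hair bundle, differed by -0.15 (-0.31 to 0.02).

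PCDH10 was higher in KO cells in every condition. At 2 Gy it read 7.75, 7.54 and 7.05 at 24 h and 7.41, 7.25 and 6.96 at 4 h on KO arrays, against 5.94, 5.49 and 5.67 and then 5.24, 4.70 and 5.40 on parental arrays. At 0 Gy it read 7.81, 7.59 and 7.12 at 24 h and 7.42, 7.54 and 7.03 at 4 h on KO arrays, against 5.51, 5.27 and 5.10 and then 5.15, 5.75 and 5.41 on parental arrays. The lowest KO value, 6.96, was above the highest parental value, 5.94. The difference was 1.99 (SE 0.10, 3.96-fold higher in KO cells, adjusted p = 2.6e-17, limma), and among the members it was the largest rise.

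PCDH7 read 9.05, 8.76 and 8.60 at 2 Gy and 24 h and 8.75, 8.76 and 8.46 at 2 Gy and 4 h on KO arrays, against 7.55, 7.15 and 7.46 and then 7.34, 7.01 and 7.29 on parental arrays. At 0 Gy it read 8.96, 8.70 and 8.74 at 24 h and 8.82, 8.76 and 8.57 at 4 h on KO arrays, against 7.48, 7.43 and 7.62 and then 7.46, 7.44 and 7.36 on parental arrays. It thus held a narrow range within each line, with a gap between the lines in each condition. The difference was 1.36 (SE 0.06, 2.57-fold higher in KO cells, adjusted p = 5.29e-19, limma), between 1.29 and 1.45 by condition.

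Other non-clustered protocadherins were lower in KO cells. PCDH18 had a lowest, median and highest signal of 4.18, 4.73 and 5.36 on KO arrays, against 5.22, 5.51 and 5.80 on parental arrays. It differed by -0.77 (SE 0.09, 1.70-fold lower, adjusted p = 3.83e-08, limma) and was called in 3 of 4 conditions, each call holding under the 15 alternatives run. PCDH17 had 7.83, 8.13 and 8.42 on KO arrays, against 8.22, 8.48 and 8.67 on parental arrays, a difference of -0.33 (SE 0.04, 1.26-fold lower, adjusted p = 3.66e-07). Its call at 2 Gy and 24 h (-0.45) held under all 15 alternatives. Those at 2 Gy and 4 h (-0.29) and at 0 Gy and 4 h (-0.32) held under 9 and 13 of 15. PCDH17 and PCDH18 are delta protocadherins like PCDH10, so members of this subfamily went both ways. PCDH20 was above background on 5 KO and 11 parental arrays, and its difference of -0.30 (SE 0.10, adjusted p = 0.0252) was not called under 7 of 32 alternatives, such as array weights (-0.25, adjusted p = 0.051). PCDH9 was above background on all arrays and differed by 0.04 (95% interval -0.19 to 0.27).

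The clustered beta protocadherins did not move as a block. Of the 16 genes, 6 were never above background (PCDHB1, PCDHB4, PCDHB6, PCDHB10, PCDHB13 and PCDHB15). In KO cells 2 were higher (15.8% of all genes) and 1 was lower (14.6% of all genes), and the median difference was 0.02. PCDHB16 had 4.44, 4.96 and 5.31 as its lowest, median and highest signal on KO arrays, against 3.75, 4.16 and 4.74 on parental arrays. It was higher by 0.72 (SE 0.10, 1.65-fold, adjusted p = 5.45e-07, limma), and its calls at 2 Gy and 4 h (0.88) and at 0 Gy and 24 h (0.83) held under the 15 alternatives run for each. Its call at 2 Gy and 24 h (0.62, adjusted p = 0.0378) was lost with array weights (0.54, adjusted p = 0.059) and without KO replicate 1 (0.60, adjusted p = 0.12), KO replicate 2 (0.57, adjusted p = 0.13), parental replicate 1 (0.64, adjusted p = 0.071) or parental replicate 2 (0.46, adjusted p = 0.22). PCDHB5 had 5.46, 5.96 and 6.11 on KO arrays, against 5.34, 5.57 and 5.78 on parental arrays, and was higher by 0.31 (SE 0.08, 1.24-fold, adjusted p = 0.00478), with differences of 0.23 to 0.36 by condition. No single condition passed the test for PCDHB5.

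PCDHB2, near the start of the array of genes, ran the other way. It had 3.44, 4.07 and 4.31 on KO arrays, against 4.26, 4.46 and 5.04 on parental arrays, and was lower by 0.55 on the log2 scale (log2 difference -0.55, SE 0.10, 1.46-fold, adjusted p = 8.97e-05, limma). By condition PCDHB2 was called only at 0 Gy. That call held under 9 of 15 alternatives at 24 h (-0.63) and under 12 of 15 at 4 h (-0.67). PCDHB11 and PCDHB12, both above background on all arrays, differed by 0.06 (95% interval -0.11 to 0.22) and -0.06 (-0.21 to 0.08). PCDHB9, next to PCDHB16, differed by 0.19 (adjusted p = 0.07). The genes are close copies of one another, and probe sets of one may bind RNA of another, which was not tested. In the promoters shown, the motif began at position -60 relative to the gene's start in PCDHB2, at -16 in PCDHB5, at -66 in PCDHB16, at -76 in PCDHB9 and at -65 in PCDHB12.

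**Figure D3:**
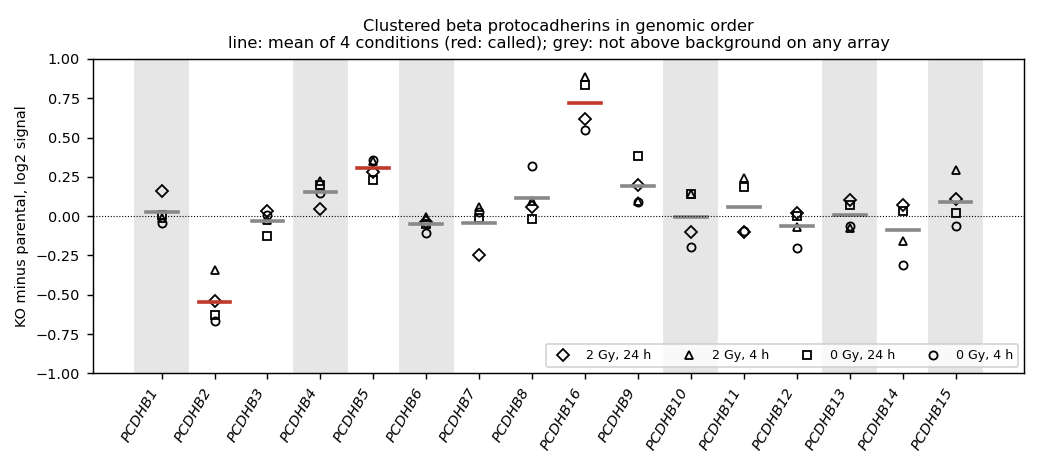
KO minus parental difference (log2 signal, vertical axis) of the 16 beta protocadherins in their order on chromosome 5, with a marker for each condition and a line for the mean, red where it passed the test. PCDHB16 at 0.72 and PCDHB5 at 0.31 stand above 0 and PCDHB2 at -0.55 below it, while most others lie near 0.

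The called members were set beside their chromosome neighbours. DCHS2, FAT1, FAT4, PCDH18, PCDH7 and PCDH10 all lie on chromosome 4, the first 4 of them lower and the last 2 higher in KO cells. The median line difference of the nearest genes outside the superfamily was -0.01 around DCHS2, 0.003 around FAT1, 0.0001 around FAT4, -0.01 around PCDH10 and -0.03 around PCDH7. Around DCHS1 on chromosome 11 it was -0.07. Over the 17 called members it lay between -0.13 and 0.02. For neighbours with a mean signal above 6 alone, it lay between -0.22 around CELSR2 and 0.18 around FAT1, which had 6 such neighbours. The lowest of these medians was that around CELSR2, and the part of neighbourhoods in the differences of the members was not tested.

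Radiation moved no member past the test. Comparing 2 Gy with 0 Gy, 0 of 55 members were called in KO cells at 24 h (background 0%) and at 4 h (background 0%), and 0 in parental cells at 24 h (background 0.0678%, 12 genes) and at 4 h (background 0.226%, 40 genes). At an unadjusted p below 0.05, limma gave 2 members in KO cells at 24 h (background 4.16%), 4 in KO cells at 4 h (background 3.3%), 5 in parental cells at 24 h (background 6.93%) and 1 in parental cells at 4 h (background 6.69%). The 95% interval of such a difference between 2 groups had a median reach of 0.35 on either side over the members.

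That 1 member was CDH8, with 5.37, 5.98 and 5.62 in parental cells 4 h after 2 Gy, against 6.04, 6.35 and 6.02 after 0 Gy. The doses did not overlap, and the difference was -0.48 (SE 0.14, adjusted p = 0.34, limma). With arrays weighted by their quality it was -0.67 and passed (adjusted p = 0.00384). PCDH8, known as arcadlin in the rat, where it is induced by neuronal activity, read 3.35, 3.53 and 3.49 in parental cells 24 h after 2 Gy, against 3.07, 2.88 and 2.65 after 0 Gy. In KO cells it read 3.18, 3.41 and 3.43, against 3.13, 2.85 and 2.63. PCDH8 was above background on 2 of 24 arrays, so no fold is given, and the differences were 0.59 in parental cells (adjusted p = 0.25) and 0.47 in KO cells (adjusted p = 1.00).

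Time after treatment was compared in the same way. Comparing 24 h with 4 h, 0 members were called in KO cells at 2 Gy (background 0.0452%) and at 0 Gy (background 0%), and 0 in parental cells at 2 Gy (background 0.695%, 123 genes) and at 0 Gy (background 0%). At an unadjusted p below 0.05, limma gave 5 members in KO cells at 2 Gy (background 7.94%), 4 in KO cells at 0 Gy (background 6.87%), 10 in parental cells at 2 Gy (background 8.8%) and 2 in parental cells at 0 Gy (background 4.69%).

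The irradiated parental cells held the differences nearest the threshold. PCDH12, a protocadherin known from endothelial cells, read 4.23, 4.76 and 3.63 at 24 h, against 3.11, 3.11 and 3.10 at 4 h, where it was not above background. Its difference was 1.10 (SE 0.28, at least 1.61-fold, adjusted p = 0.055, limma). In irradiated KO cells it read 4.35, 4.37 and 3.96 at 24 h, against 3.46, 3.49 and 3.08 at 4 h, a difference of 0.88 (SE 0.28, at least 1.52-fold, adjusted p = 0.32). The bounds set the 24 h mean against the background level at 4 h. CDH11 in irradiated parental cells read 7.38, 7.86 and 7.44 at 24 h, against 6.65, 7.08 and 7.18 at 4 h, a difference of 0.59 (SE 0.15, adjusted p = 0.070, limma). At 0 Gy, PCDH12 also rose from 4 h to 24 h, by 0.40 in parental and 0.42 in KO cells (SE 0.28 each). There it was above background at 24 h on 1 of 3 parental and 2 of 3 KO arrays. CDH11 rose at 0 Gy by 0.40 in parental and 0.02 in KO cells (SE 0.15 each). None of these rises at 0 Gy was called, and whether the time change differed between the doses was not tested.

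Whether these last calls were made depended on the processing. With array weights CDH11 (0.71, adjusted p = 0.00326), CDH8 (0.59, adjusted p = 0.00731), PCDH12 (0.93, adjusted p = 0.0394) and PCDH8 (0.58, adjusted p = 0.0303) passed in limma. With the replicate number as a block CDH11 (0.59, adjusted p = 0.0237) and PCDH12 (1.10, adjusted p = 0.0183) passed. Leaving out parental replicate 2 at 4 h brought CDH8 past the threshold (0.61, adjusted p = 0.0398), leaving out replicate 3 at 4 h brought CDH11 past it (0.70, adjusted p = 0.0464), and leaving out replicate 3 at 24 h brought PCDH12 past it (1.39, adjusted p = 0.0216). CDH11 and PCDH12 at 2 Gy thus lay at the edge of what these arrays call.

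No member's response to dose or time was shown to differ between the lines. The difference between the lines in the 2 Gy response gave 0 called members at 24 h (background 0%) and at 4 h (background 0%), and the difference in the 24 h minus 4 h change gave 0 at 2 Gy (background 0%) and at 0 Gy (background 0%). At an unadjusted p below 0.05, limma gave 2 and 0 members for the dose response at 24 h and 4 h (background 3.17% and 2.61%), and 0 and 1 members for the time change at 2 Gy and 0 Gy (background 3.55% and 3.5%). The median reach of the 95% interval of such a difference was 0.49 over the members, before adjustment for the number of genes. Differences in response below this reach were therefore hard to detect, and the reach varied by gene. CDH10 in the 2 Gy response at 24 h (-0.43) and CDH8 in the time change at 0 Gy (0.48) lay below it. Both had an unadjusted p below 0.05 in limma, and neither was called. A larger difference in response, -0.54 for CDH3 in the 2 Gy response at 24 h, was not called either.

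**Figure D4:**
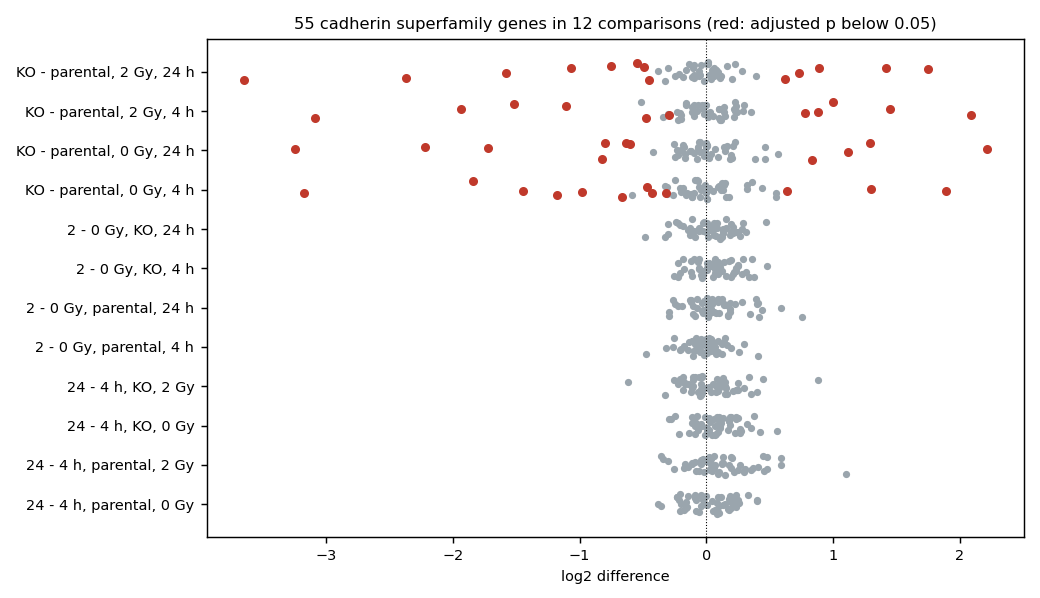
Log2 differences (horizontal axis) of the 55 members in 12 comparisons of 2 groups each, in rows, with called members in red. Members are called in the 4 line comparisons at the top, where DCHS2 lies furthest left, and 0 are called in the dose and time comparisons.

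The other genes of these pathways were read from lists of partners. The background for their counts was 15.8% of all genes higher and 14.6% lower in KO cells, or 30.4% in either direction. Of 18 catenins and adhesion partners measured, 7 were higher and 3 lower in KO cells, with a median of 0.01. PKP2, plakophilin 2 of the desmosomal plaque, averaged 6.08 ± 0.33 on KO arrays and 8.21 ± 0.19 on parental arrays (SD, n = 12), a difference of -2.14 (SE 0.09, adjusted p = 1.11e-19, limma). Vinculin (VCL, 0.61) and afadin (AFDN, 0.58), which tie junctions to actin, were higher in all 4 conditions, and so was the nectin NECTIN2 (8.89 ± 0.11 on KO arrays and 7.90 ± 0.20 on parental arrays). Neighbouring genes of VCL and AFDN with a mean signal above 6 had median differences of 0.37 and 0.42, and their part in the 2 values was not tested. Of 8 desmosomal genes, the desmocollins and desmogleins and the plaque protein DSP, 6 were never above background, and the median was 0.09. Of these 8, DSG2 and DSC2 were called higher in KO cells, but DSC2 was not above background on any array. DSG2, desmoglein 2, was above background on all arrays and higher by 0.67 (SE 0.11, adjusted p = 1.06e-05, limma). Of 9 other genes with cadherin repeats 1 was higher and 1 lower, with a median of -0.06, and the photoreceptor cadherin CDHR1 was called higher. CDHR1 was above background on 11 of 12 KO and 1 of 12 parental arrays, so no fold is given, and its bright neighbours had a median of 0.43.

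Of 26 planar polarity, FAT-DCHS and Hippo genes, 4 were higher and 9 lower in KO cells, with a median of -0.09. YAP1, the transcriptional co-activator at the end of the Hippo pathway, averaged 5.19 ± 0.22 on KO arrays and 6.63 ± 0.27 on parental arrays (SD, n = 12), a difference of -1.44 (SE 0.09, adjusted p = 6.51e-15, limma). TEAD4, a DNA-binding partner of YAP1, differed by -0.49, and the Frizzled receptors FZD6 and FZD3 by -0.80 and -0.63. VANGL1, a core planar polarity protein, was higher by 0.57. FJX1, whose Drosophila counterpart phosphorylates the cadherin repeats of Fat and Dachsous, differed by -0.48. Other Hippo genes ran the other way: the YAP1 paralogue WWTR1 was higher by 0.26 (adjusted p = 0.00282, limma), the kinase LATS1 by 0.21 (adjusted p = 0.00154) and CCN2, a known YAP target, by 0.32 (adjusted p = 0.0250). These 3 and TEAD4 and FJX1 were chosen after their values were seen.

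Of 11 proteases that shed cadherins 3 were higher and 2 lower, with a median of 0.03, and MMP2, a gelatinase, was higher by 1.07 beside bright neighbours with a median of 0.35. Of 17 transcription factors that act on cadherin genes 4 were higher and 3 lower, with a median of 0.05. TWIST1, a repressor of E-cadherin, differed by -0.76, and TCF4 by 0.48. Of 13 genes of protocadherin promoter choice and silencing 4 were higher and 1 lower, with a median of 0.08. The cohesin gene SMC3 (0.39) rose, WAPL (0.44) rose as well, and the DNA methyltransferase DNMT3A (-0.44) fell. The bright neighbours of SMC3 and WAPL on chromosome 10 had median differences of 0.39 and 0.44, as large as those of the genes themselves, and their part was not tested.

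Of 13 protocadherin signalling partners 6 were higher and 2 lower, with a median of 0.09. CYFIP2, a subunit of the WAVE complex that PCDH10 binds, averaged 5.64 ± 0.26 on KO arrays and 4.56 ± 0.47 on parental arrays (SD, n = 12), a difference of 1.08. BRK1, another WAVE subunit, rose by 0.65 beside bright neighbours with a median of 0.46. The kinase FYN rose by 0.53 and MARCKS, a membrane-bound actin regulator, differed by -0.42. RELN, the secreted glycoprotein reelin, was above background on 11 of 12 KO arrays and 0 of 12 parental arrays, and was at least 1.51-fold higher in KO cells (adjusted p = 2.06e-10, limma).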

How the data were processed

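RNA of 24 samples in 8 groups was labelled with biotin and hybridised to Affymetrix arrays. Per the submitters' processing notes, the authors summarised them with RMA in Affymetrix Expression Console 1.1; what was deposited is 1 log2 value for each probe set and array, and no genome build for the array is stated in the labels. Probe sets were named from the platform annotation: 17709 of 24351 had 1 symbol and were kept. Those with no symbol or with several were left out and not counted apart. This gave 17687 genes, with the highest-mean probe set kept for the 20 genes that had more than 1. Array numbers limit the precision.

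From these values limma 3.58.1 in R 4.3.3 fitted 1 mean per group (lmFit, eBayes with an intensity trend) and 17 contrasts, with Benjamini-Hochberg adjustment over all genes and calls below 0.05. In a test on simulated data over 17687 genes, 17487 were left unchanged and the noise was independent between arrays. The mean line difference recovered 92% of 50 genes raised by 0.5 and 100% of 50 raised by 1. A line difference at 0 Gy and 4 h recovered 40% and 94%, and 2 Gy against 0 Gy in KO cells at 4 h recovered 32% and 88%. On the real arrays 30.4% of genes were called between the lines, so these shares need not hold for the line comparisons. The rule for named members took those called in any contrast, with values of every array for those called in all 4 conditions, and uncalled members needed to complete a subfamily; the members named in the dose and time comparisons (CDH8, CDH11, PCDH8 and PCDH12) were chosen after their values were seen. Of each partner list the rule took genes called in all 4 conditions, and the others named were chosen after their values were seen. The members, partner lists and marker lists were chosen with earlier results of these data known.

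Same-numbered replicates deviated together, with every correlation above 0.1, in 4 of 12 comparisons of 2 groups. These were the line comparisons at 2 Gy and 24 h and at 0 Gy and 4 h, and both dose comparisons in KO cells. The main fit paired no replicates, and the replicate block was run over all arrays and contrasts as an alternative. Any such pairing comes from the data, not the labels. Alternatives were array weights, a replicate block, quantile normalization again, median centring, no intensity trend, a filter on dim genes, the mean of probe sets, only the compared arrays, leaving out each replicate, and, chosen after seeing the data, leaving out 2 arrays of narrow signal range.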

Additional observations from a re-analysis of the deposited data

How the results depend on the processing

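Among the members called in any contrast, the partner genes called in all 4 conditions and SLFN11, no called line difference reversed under any alternative. Uncalled values and the dose, time and line-by-response differences were not checked for reversal. Of the 17 members called between the lines over the 4 conditions, 16 kept their call under every alternative, 32 for each and 31 for CDH10, and PCDH20 kept it under 25 of 32, with adjusted p up to 0.060 in limma. DCHS2, CDH11, FAT1, PCDH10, PCDH7 and CDH8 kept their calls in each condition under all 15 alternatives. The number of members higher in KO cells over the 4 conditions was 10 in place of 6 after quantile normalization again, which added CDH20, PCDH12, PCDHB4 and PCDHB9. At 2 Gy and 24 h the number higher was 3 in place of 5 without the 2 arrays of narrow signal range, an alternative chosen after seeing the data. Array weights called 1 member for 2 Gy against 0 Gy in parental cells at 4 h and 4 members for 24 h against 4 h in irradiated parental cells; the replicate block called 2 members there and moved no other count of members by over 1.5 times. In the 4 comparisons whose same-numbered replicates deviated together, the block added a call for PCDH20 at 0 Gy and 4 h (-0.58, adjusted p = 0.048, limma) and for CDH7 at 2 Gy and 24 h (0.39, adjusted p = 0.023), and ended none. At 0 Gy and 24 h it added CELSR2 (-0.42, adjusted p = 0.047, limma) and PCDH17 (-0.25, adjusted p = 0.040). Leaving out 1 replicate at a time gave 6 to 8 higher and 10 to 12 lower members over the 4 conditions. By condition it gave 3 to 5 higher and 7 to 8 lower at 2 Gy and 24 h, 4 to 5 and 5 to 6 at 2 Gy and 4 h, 4 to 5 and 6 to 7 at 0 Gy and 24 h, and 3 to 4 and 6 to 9 at 0 Gy and 4 h. The 3 at 2 Gy and 24 h came without KO replicate 1 or 2 or parental replicate 1 or 2. For 24 h against 4 h in irradiated parental cells it gave 0 to 1 members, and 0 in the other dose, time and line-by-response comparisons. The cause of these shifts was not tested. The median difference of all genes between the lines was -0.02 as deposited, -0.01 after quantile normalization and 0.004 after centring. With the mean over 4 conditions only the compared arrays are all arrays, so that alternative was not run there. Members at or below background have no measured change, and 13 of 55 were there on every array.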

Other observations

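Markers of other cell types were read against the 30.4% of all genes called between the lines, 15.8% higher and 14.6% lower in KO cells. Of 6 fibroblast markers 1 was higher in KO cells (PDGFRA, 0.83) and 3 were lower: COL1A2 (-0.37), PDGFRB (-0.18) and LUM, which was above background on 0 KO and 9 parental arrays and at least 1.07-fold lower in KO cells. Of 6 epithelial markers 1 was lower (KRT18, -0.55), of 4 blood markers 1 was lower (CD3E, above background on 5 of 24 arrays), and of 5 endothelial and 3 neural markers 0 were called in limma. Of the 9 Ewing sarcoma markers 5 were higher and 3 lower in KO cells. PPP1R1A, an inhibitor of protein phosphatase 1, differed by -2.20 and PRKCB, a protein kinase C, by 1.02.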
